A study of Saccharomyces cerevisiae with 4 samples.

Results

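The genes described here are the yeast genes that lie near chromosome ends and belong to none of the large end-linked families treated apart. A nuclear gene was a member if its start lay within the first 20000 bases of a chromosome, or its end within 20000 bases of the last gene end that the deposited tables list for that chromosome. Of 6664 nuclear genes, 328 met this rule. Leaving out genes whose names begin with COS, PAU, DAN, TIR, AAD, HXT or PHO, and HXK1, DLD3, GIT1 and ADH4, removed 48 and left 280 members on 32 ends of 16 chromosomes. The rule used positions and names and no measured value. Just inside the limit were YHR214W, at 19785 bases, and YMR315W, at 19953. Just outside it were PAD1, at 20081 bases, and YDR537C, at 20250.

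Messenger RNA had been sequenced from SK1, a strain background of Saccharomyces cerevisiae that sporulates efficiently, after 4 h at 30 °C in sporulation medium (0.3% potassium acetate, OD600 of 1.9). The ndt80 strain lacks NDT80, the transcription factor gene needed to leave meiotic prophase. The ndt80pch2 strain lacks NDT80 and also PCH2, which encodes an AAA+ ATPase of meiotic chromosomes. Both strains therefore share the NDT80 deletion, and a strain with NDT80 was not analysed here. The question addressed is how transcript levels differ once Pch2 is missing too. Each strain had 2 samples, and the groups come from the sample titles, since the free-text notes of all 4 samples name only the NDT80 deletion.

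The deposited tables hold 1 value per gene and strain, which was separated into whole reads of 2 libraries, called A and B for ndt80 and C and D for ndt80pch2. Levels are given as TPM, in which reads are divided by coding length and then scaled to a common total in each library. Of the genes at the limit of the rule, YMR315W averaged 181.5 TPM in ndt80 and 191.6 TPM in ndt80pch2, PAD1 48.9 and 62.1 TPM, YHR214W 0 and 16.7 TPM, and YDR537C had 0 reads throughout. Nuclear genes took 1715306 to 2379190 reads per library. PCH2 had 710 and 776 reads in libraries A and B and 0 in C and D, and NDT80 had 0 in all 4. The cultures carried the transcripts of meiotic prophase: 10 marker genes of that stage averaged between 90.8 and 1000 TPM, while the 6 haploid or mating markers in the files reached at most 15.0 TPM and 2 of them had 0 reads. The 6 listed genes of spore formation after Ndt80 averaged between 2.71 and 143.4 TPM, with a median of 38.5 TPM. Their range thus overlapped that of the prophase markers. Of the prophase markers, 1 differed by limma-voom: DMC1, the meiotic strand-exchange protein, had 476 and 491 TPM in ndt80 and 231 and 252 TPM in ndt80pch2 (adjusted p = 0.0006 by limma-voom and 0.0704 by limma-trend). Nothing in the labels places the samples of a strain in separate cultures, so p-values measure only the spread between these samples and this spread may be technical. In bulk RNA, fewer cells with a transcript and less of it per cell cannot be told apart.

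Chromosome ends in budding yeast consist of a short irregular telomere repeat, followed in many cases by a Y' element, which encodes a helicase-like protein, and by an X element. The region inside these carries genes that are shared among ends as near-identical copies, many of them for growth on particular sugars, for iron uptake, for vitamin synthesis and for cell-surface proteins. Sir proteins, recruited by the repeat-binding protein Rap1 and by the Ku complex, can silence genes close to an end, and the histone deacetylase Hda1 and the repressors Tup1, Sum1 and Hst1 act over wider stretches. The repeat is shown to illustrate what an end is made of; distances on left ends are counted from the first base of the chromosome, and on right ends from the last gene end in the files, which lies 222 to 3905 bases inside the end of the reference chromosome. The first 60 bases of the left end of chromosome I in the R64 reference (RefSeq, chrI:1-60, + strand) read as follows.
left end of chromosome I: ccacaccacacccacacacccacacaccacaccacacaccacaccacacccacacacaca

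Many members had few or no reads in either strain, and 1 passed a test between the strains, by limma-voom and not by limma-trend. Of the 280 members, 90 (32.1%) had 0 reads in all 4 libraries, against 8.28% of all nuclear genes with a value in each library. Relative to the median of all tested genes, the tested members stood slightly higher in ndt80pch2, with a median log2 fold change of 0.126. By limma-trend on log2(TPM + 1), 0 members passed an adjusted p of 0.05. By limma-voom on the recovered reads 1 member passed, YAR068W, which was higher in ndt80pch2.

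YAR068W (chromosome I, 222406 to 222891, R64, + strand) is a small coding gene 6426 bases from the last gene end of its arm, and its product has no established function. It had 47.9 and 51.4 TPM in libraries A and B and 105.7 and 105.3 TPM in C and D, from 40, 47, 72 and 70 reads. Both ndt80pch2 libraries lay above both ndt80 libraries, and the libraries of each strain were close together. The mean was 49.6 ± 2.51 TPM in ndt80 and 105.5 ± 0.317 TPM in ndt80pch2 (SD, n = 2). The log2 fold change relative to all genes was 1.22 ± 0.113 (SE), with an adjusted p of 0.0848 by limma-trend and 0.0253 by limma-voom. limma-trend called 0.0173% of the 5783 tested genes, which is PCH2 alone, and limma-voom called 0.45%.

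Because YAR068W was the member called, its promoter in the R64 reference is shown, from 250 bases before to 50 bases after the start of its coding sequence (chrI:222156-222455, + strand, RefSeq).
YAR068W: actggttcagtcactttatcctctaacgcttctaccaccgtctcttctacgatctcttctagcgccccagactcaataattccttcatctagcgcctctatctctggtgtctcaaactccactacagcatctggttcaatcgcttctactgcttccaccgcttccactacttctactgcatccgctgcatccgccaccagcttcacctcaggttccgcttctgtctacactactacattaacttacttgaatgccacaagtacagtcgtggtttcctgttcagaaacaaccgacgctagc

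This window held neither GGCGGC, the core of the URS1 element bound by Ume6 at early meiotic genes, nor CACAAA, the core of the middle sporulation element bound by Ndt80, on either strand. Over the members, 24 of 279 windows of this length (8.6%) held GGCGGC, against 5.19% of 6663 nuclear genes. CACAAA was in 32 of the 279 members' windows (11.5%), against 18.7% of all. Matches of each motif were counted on their own, and a match describes letters only.

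YAR068W has a near-identical copy, YHR214W-A, on the right end of chromosome VIII (543008 to 543493). The genes differ at 1 of 486 bases, base 182 counted from the start of the gene, so few fragments can be told apart. A window of 41 bases around that position is shown for each, with the differing base in capitals (R64, + strand, chrI:222567-222607 and chrVIII:543169-543209).
YAR068W, around the differing base: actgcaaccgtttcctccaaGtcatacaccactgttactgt
YHR214W-A, around the differing base: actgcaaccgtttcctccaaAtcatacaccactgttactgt

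YHR214W-A had 3 reads in library B and 0 in the others. With both genes summed, the levels were 47.9, 54.7, 105.7 and 105.3 TPM in A to D, and the groups again did not overlap. The summed log2 fold change relative to all genes was 1.18 (adjusted p = 0.126 by limma-trend and 0.0294 by limma-voom). The gene next to it, YAR066W (221049 to 221660), has a similar partner beside YHR214W-A, YHR214W, with 611 of 612 bases identical. YAR066W had 175.8, 179.8, 213.4 and 206.6 TPM in A to D. Its ndt80pch2 libraries were both above its ndt80 libraries, at a log2 difference of 0.39 ± 0.0869 (SE) relative to all genes (limma adjusted p = 0.297). YHR214W had 0 reads in A, B and C and 28 in D, so its value rests on 1 library.

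**Figure D1:**
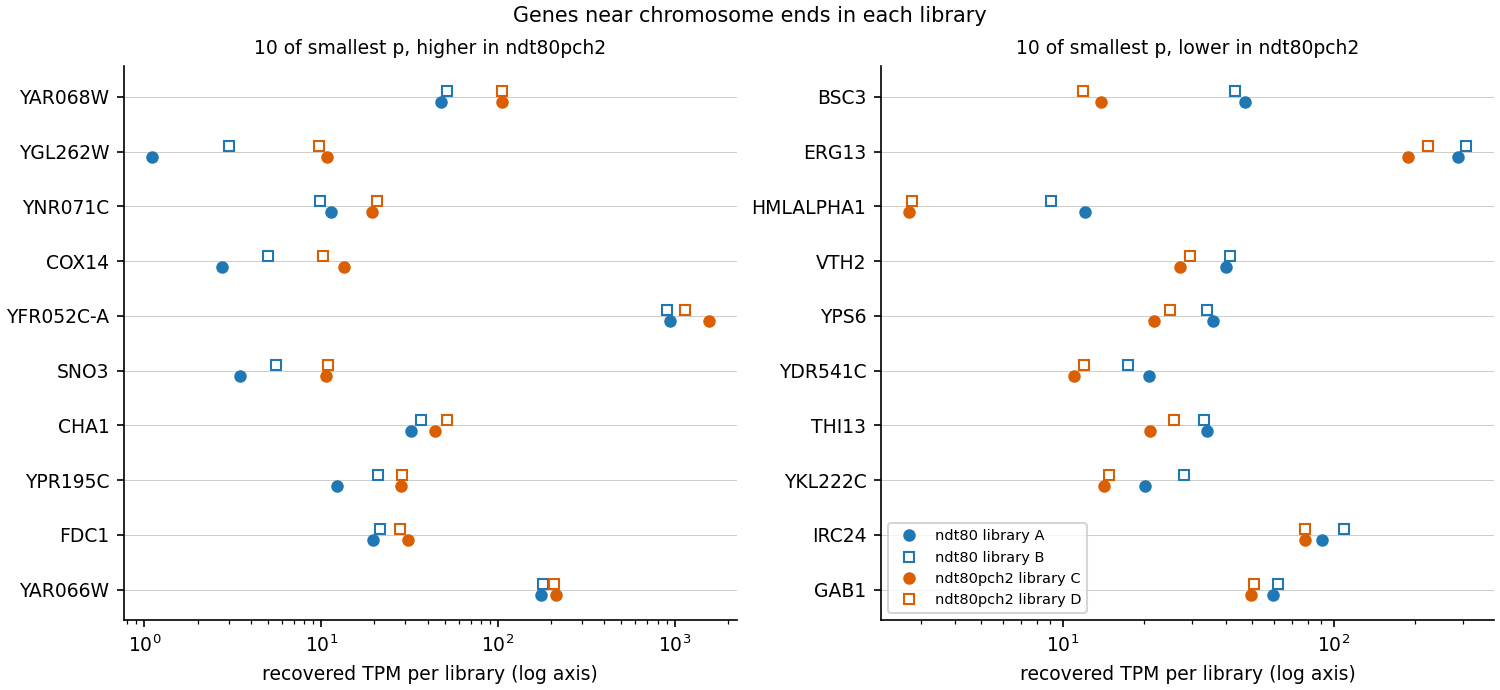
TPM per library on a log axis for the 10 members of smallest unadjusted p in each direction, with filled circles for libraries A and C, open squares for B and D, blue for ndt80 and orange for ndt80pch2. YAR068W lies near 50 TPM in ndt80 and near 105 TPM in ndt80pch2, and BSC3 between 43.0 and 47.0 TPM in ndt80 and between 11.8 and 13.9 TPM in ndt80pch2.

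BSC3 (chromosome XII, 1067045 to 1067353), named from a screen for reading past stop codons, stood lowest among tested members relative to all genes. BSC3 is among the members not found in the R64 reference annotation. It had 47.0 and 43.0 TPM in the ndt80 libraries and 13.9 and 11.8 TPM in the ndt80pch2 libraries, from 25, 25, 6 and 5 reads. Both ndt80pch2 libraries were below both ndt80 libraries. The log2 fold change relative to all genes was -1.59 ± 0.188 (SE), with an adjusted p of 0.0848 by limma-trend and 0.132 by limma-voom. All 309 bases of BSC3 lie within YLR464W, a gene on the other strand listed at 0 reads in every library, and 267 of them also lie within the Y' gene YRF1-4, on that other strand too, which had 111, 123, 95 and 90 reads in A to D. No source used here says whether reads were counted by strand, so reads of BSC3 and of these genes cannot be told apart.

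ERG13 (chromosome XIII, 19060 to 20535) encodes HMG-CoA synthase, which makes the precursor of mevalonate and of ergosterol. It had 287 and 307 TPM in ndt80 and 188 and 223 TPM in ndt80pch2, from 389 to 853 reads per library. The ndt80pch2 libraries were both lower. The log2 fold change relative to all genes was -0.39 ± 0.112 (SE; adjusted p = 0.255 by limma-trend and 0.0578 by limma-voom).

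The other members of smallest p on the higher side were low, apart from the overlapping gene YFR052C-A and the copy gene YAR066W. YNR071C (chromosome XIV, 770440 to 771468), which resembles aldose 1-epimerases of sugar metabolism, had 11.3, 9.81, 19.4 and 20.6 TPM in A to D. Its ndt80pch2 libraries were both higher, with a log2 difference of 1.01 ± 0.232 (SE) relative to all genes and an adjusted p of 0.287 by limma. CHA1 (chromosome III, 15798 to 16880), the enzyme that deaminates serine and threonine, had 32.2, 36.8, 44.2 and 51.3 TPM, without overlap (0.60 ± 0.159, adjusted p = 0.29 by limma). FDC1 (chromosome IV, 1512094 to 1513605), a decarboxylase of phenylacrylic acids, had 19.6, 21.4, 31.2 and 28.0 TPM, also without overlap. Its log2 difference relative to all genes was 0.65, beside 0.46 for its partner gene PAD1 just outside the limit.

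Several of these genes rested on very few reads. YGL262W, of unknown function, had 1 and 3 reads in ndt80 and 8 and 7 in ndt80pch2 (limma adjusted p = 0.263). COX14, which encodes a mitochondrial protein needed to assemble cytochrome c oxidase, had 1 and 2 reads against 4 and 3 (limma adjusted p = 0.287). YPR195C, a gene of unknown function, had 7 and 13 reads against 13 and 13 (limma adjusted p = 0.29). For these genes no fold change is given, since 1 read moves it widely. Among all tested members, 31 had under 20 reads in the 4 libraries together.

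YFR052C-A (chromosome VI, 253429 to 253734) had the second highest level of the members, with 942 and 902 TPM in ndt80 and 1560 and 1147 TPM in ndt80pch2. Both ndt80pch2 libraries were above both ndt80 libraries, and C and D were far apart. The log2 difference relative to all genes was 0.68 ± 0.154 (SE; adjusted p = 0.287 by limma-trend and 0.0866 by limma-voom). YFR052C-A is not found in the R64 reference annotation, and it shares 143 bases with HXK1, a hexokinase gene on the same strand. HXK1, left out by the rule, had 2518, 2250, 3616 and 3068 TPM in A to D (0.63 relative to all genes, limma adjusted p = 0.287). How much of the level of YFR052C-A comes from HXK1 reads was not tested.

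On the lower side, YPS6 (chromosome IX, 430498 to 432111), a cell-surface aspartic protease of the yapsin family, had 35.7 and 33.9 TPM in ndt80 and 21.7 and 24.9 TPM in ndt80pch2. Its ndt80pch2 libraries were both lower, at -0.41 ± 0.172 (SE) on the log2 scale relative to all genes (limma adjusted p = 0.287). YDR541C, which resembles dehydrogenases that reduce aldehydes, had 20.8, 17.5, 11.03 and 12.0 TPM (-0.53, limma adjusted p = 0.29), and YKL222C, which has the zinc-cluster domain of fungal transcription factors, had 20.04, 28.1, 14.2 and 14.8 TPM (-0.53, and -0.29 without library B; limma adjusted p = 0.291). In both genes the ndt80pch2 libraries were below the ndt80 libraries. IRC24, a putative reductase, and GAB1, a subunit of the enzyme that attaches GPI anchors, differed by -0.19 and -0.14 relative to all genes. Their limma adjusted p-values of 0.302 and 0.319 belong to changes of -0.33 and -0.28, before the median of all genes is subtracted. With median-of-ratios scaling the limma-trend adjusted p-values were 0.625 and 0.700. For IRC24 the value relative to all genes was -0.32 without library A and -0.050 without B.

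All 280 members had a value in each library, and their mean levels ran from 0 to 1278 TPM. Besides the 90 without reads, 32 averaged under 1 TPM, 70 between 1 and 10, 72 between 10 and 100, and 16 over 100 TPM. Of all nuclear genes, 51.2% averaged between 10 and 100 TPM and 27.0% over 100, against 25.7% and 5.71% of members. The median level was 2.68 TPM for members and 43.5 TPM for all nuclear genes. Together the members took 0.992%, 1.03%, 1.07% and 1.06% of nuclear reads in libraries A to D. For a gene of 1000 bases, a count of 0 still allows the level of 3 reads, which ranged from 1.59 TPM in library B to 2.19 TPM in library D and covers counting error only.

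The share of members without reads was highest at the very end. Within the first 5 kb 47.1% of the members had 0 reads everywhere, then 43.3% from 5 to 10 kb, 23.7% from 10 to 15 kb and 5.77% from 15 to 20 kb. The median level in these bins was 0.369, 0.717, 5.0 and 17.9 TPM. Beyond the rule, genes from 20 to 25 kb had a median of 23.5 TPM and those at 40 kb or more 46.8 TPM. The share without reads was 12.2% and 7.15% there, above that of the members from 15 to 20 kb. The share of genes with a near-identical copy ran along the same gradient, at 74.1%, 40.3%, 34.2% and 21.2% in the 4 bins. A copy was counted as near-identical at 95% identity or more over at least 80% of the gene.

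**Figure D2:**
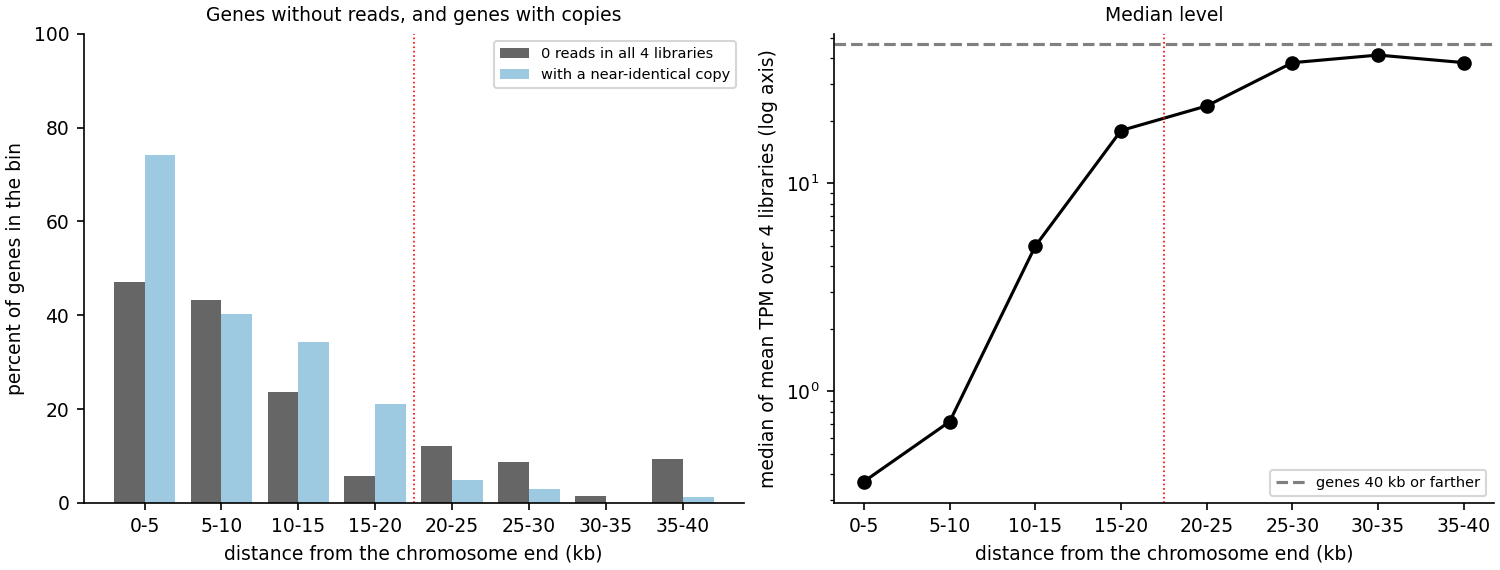
Left, the percent of genes with 0 reads in all 4 libraries (grey) and with a near-identical copy (light blue) in bins of 5 kb from the chromosome end; right, the median of mean TPM in each bin on a log axis, with genes at 40 kb or farther as a dashed line and the limit of the rule as a red dotted line. Genes without reads make up 47.1% of the outermost bin and 5.77% of the bin from 15 to 20 kb, while the median level climbs from 0.369 to 17.9 TPM.

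Copies could be set aside. Of 127 members with a near-identical copy, 55 (43.3%) had 0 reads in every library, and of 153 without one, 35 (22.9%). Over all nuclear genes, 126 of 312 with a copy (40.4%) had 0 reads, and 6.7% of those without one. Genes farther than 20000 bases from an end and without a copy stood at 6.31%. Annotation moved with it as well: 58.1% of the 74 members not found in the R64 reference annotation had 0 reads, against 22.8% of the 206 found there. Among members that were annotated there and had no copy, the share was 16.5% of 121. The R64 build is that of the S288C strain, the cultures were SK1, and whether each gene is present in SK1 was not examined, so 0 reads does not separate a silent gene from one that is absent or too diverged to align.

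Some of the genes without reads lay in runs of 4 or more neighbours. Runs that held no member were not counted. On the right end of chromosome XVI (933898 to 941136) 5 neighbours had 0 reads in all libraries: YPR197C, SGE1, which exports toxic cations, and ARR1, ARR2 and ARR3, which together confer resistance to arsenic compounds. None of the 5 had a near-identical copy in the reference. On the left end of chromosome XV (4130 to 10766) a run of 4, again without copies, included BDS1, a sulfatase gene. Runs of 6 genes on the left end of chromosome XII (585 to 12076) and of 4 on the left end of chromosome XIV (371 to 6719) were made up mostly of Y' genes and their small neighbours, and 4 and 3 of their genes had copies.

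Beside the members without reads stood a few housekeeping genes. MSC1 (chromosome XIII, 15135 to 16676), named from a mutant with altered recombination between meiotic sister chromatids, was the most abundant member, with 1093, 1260, 1255 and 1503 TPM in A to D. Libraries B and C were level, so the groups overlapped (0.37 ± 0.13 relative to all genes, and 0.23 without library D; limma adjusted p = 0.401). Its neighbour ERO1, the thiol oxidase that drives disulphide formation in the endoplasmic reticulum, had 693, 637, 858 and 629 TPM, and library D was the lowest of the 4. The proteasome genes PRE4 and RPN12, for a subunit of the core particle and one of the regulatory particle, ranged from 631 to 745 TPM and from 591 to 658 TPM. PKC1, the kinase of the cell-wall integrity pathway, ranged from 234 to 261 TPM and overlapped between strains. YML131W, a putative reductase, had 291, 299, 314 and 415 TPM, with both ndt80pch2 libraries higher (0.44 ± 0.14, and 0.22 without library D; limma adjusted p = 0.347). MGA2, an activator of fatty acid desaturation, and HYR1, a peroxidase that senses hydrogen peroxide, differed by 0.025 and 0.067 relative to all genes, and both values changed sign when library A or D was left out, that of MGA2 also with no filter.

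Between the strains, 158 members with a mean of at least 1 TPM were tested. The filter passed 11 of them although their mean was under 1 TPM in 1 strain, 6 in ndt80 and 5 in ndt80pch2, so counts over the tested members are given as a description. The median log2 fold change of all tested genes was -0.147, and values relative to it are used throughout. Relative to all genes, the tested members had a median of 0.126 and an interquartile range from -0.133 to 0.387. Of these, 104 of 158 (65.8%) lay above the median of all tested genes, where 50% lie by construction. At an unadjusted p under 0.05, limma-trend placed 13 members higher and 9 lower, 8.23% and 5.7% of those tested, against 2.7% and 13.1% of all tested genes. With median-of-ratios scaling, which removes the shift of all genes, 19 were higher and 4 lower, 12% and 2.53%, against 6.55% and 3.73%. There was no overlap between strains in 33 members that were higher and 36 that were lower in ndt80pch2, or 20.9% and 22.8%, against 9.41% and 42.4% of all tested genes. Differences of at least 1.5-fold relative to all genes were found for 30 members upward and 15 downward, 19% and 9.49%, against 3.94% and 3.46%. The members were not tested as a set. Other settings called few of them: 1 of 88 with a mean of at least 10 TPM, against 0.077% of all genes tested in that way, 2 of 87 when median-of-ratios factors were added to that filter (0.192%), and 1 of 280 with no filter (0.376%). With near-identical copies summed, limma-trend called 0 of 125 (0.0176%) and limma-voom 2 (0.562%).

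The offset was also read library by library. Taken that way, the median deviation of the tested members, relative to that of all genes, was -0.0955 and -0.0177 in libraries A and B and 0.0543 and 0.0871 in C and D, with a pooled SD within strains of 0.0422. Both ndt80pch2 values were above both ndt80 values. Library A stood farthest from 0, and without it the median of the members was 0.0758. It was 0.179 without B, 0.171 without C and 0.129 without D. Replicate libraries were farther apart for members than for all genes: the median absolute log2 difference between A and B was 0.219 for members and 0.127 for all tested genes, and between C and D 0.261 and 0.201.

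The offset was seen at each level of abundance. Members of 1 to 10 TPM had a median of 0.159 (70 genes), those of 10 to 100 TPM 0.103 (72 genes) and those over 100 TPM 0.224 (16 genes). Genes farther than 20000 bases from an end had medians of -0.0063, -0.057 and 0.070 in the same ranges. Members with a near-identical copy had a median of 0.145 and those without one 0.121. By distance, the medians were 0.057, 0.312, 0.114 and 0.107 in the 4 bins from the end inward, so the outermost genes were nearer to the rest of the genome than those from 5 to 10 kb. Genes from 20 to 25 kb had 0.109, and the further bins of 5 kb out to 40 kb had 0.044, 0.058 and 0.099. Those at 40 kb or more had -0.008. The 34 tested genes of the families left out by the rule had 0.305.

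**Figure D3:**
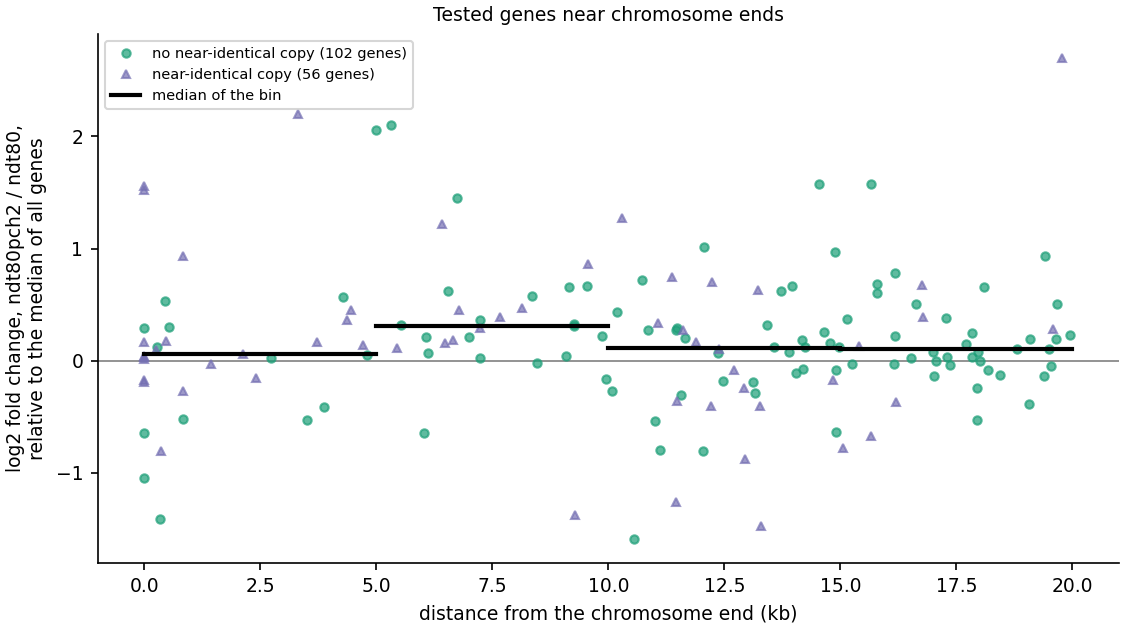
Log2 fold change of ndt80pch2 over ndt80, relative to the median of all genes, for the 158 tested members against distance from the chromosome end in kb, with circles for the 102 members without a near-identical copy, triangles for the 56 with one, and bars for the median of each bin of 5 kb. The bars stand at 0.057, 0.312, 0.114 and 0.107, the lowest gene is BSC3 at -1.59, and the highest point, YHR214W, had reads in library D alone, so that its position depends on the number added before taking logs.

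The ends had medians of either sign, whose differences were not tested. The 32 ends held 5 to 14 members each, and of the 24 with at least 4 tested members, 16 had a median above 0 and 8 below. The lowest was the left end of chromosome I, with a median of -0.304 over 5 genes, none above 12.6 TPM. The left end of chromosome XIV followed with -0.291 over 6 genes, among them SNO2, SNZ2, THI12, DDI3 and RPD3, the gene of a histone deacetylase, which itself stood at -0.00082. SNO2, SNZ2, THI12 and DDI3 have near-identical copies, and summed with them stood at 0.29, 0.19, -0.32 and -0.59. The highest was the left end of chromosome X, at 0.424 over 4 genes, all of which belong to groups of near-identical copies. Single values of such genes are uncertain, and so are the medians of these ends. The right end of chromosome I, with YAR068W and YAR066W, had 3 tested genes, and its members summed to 225.5 and 240.1 TPM in ndt80 and 321.2 and 313.1 TPM in ndt80pch2. At the right end of chromosome XII, with BSC3 and GAB1, the members summed to 142.0 and 135.9 TPM in ndt80 and 94.1 and 98.2 TPM in ndt80pch2.

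**Figure D4:**
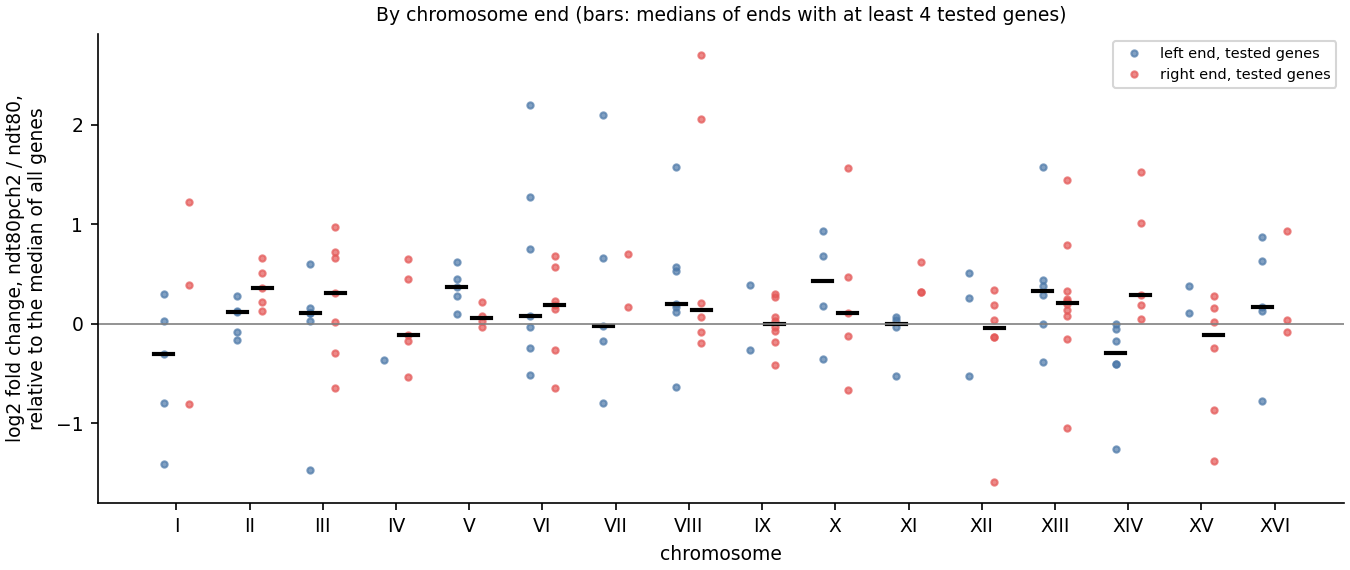
Log2 fold change relative to the median of all genes for the tested members of each chromosome, left ends in blue and right ends in red, with bars for medians of ends with at least 4 tested genes. Medians run from -0.304 (left end of I) to 0.424 (left end of X, where all tested genes belong to groups of near-identical copies).

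None of the genes listed as linked to silencing at chromosome ends passed either test. Of 20 such genes, all tested and none of them members, 0 passed by limma-trend or limma-voom, and 5 lay above the median of all genes, with a median of -0.081. At an unadjusted limma-trend p under 0.05 there were 4, all lower in ndt80pch2, beside 2.7% of all tested genes on the higher and 13.1% on the lower side. SIR2, the histone deacetylase of the Sir complex, was the lowest of the 20 in level, with 10.3, 11.6, 4.65 and 9.52 TPM. Both of its ndt80pch2 libraries were below both ndt80 libraries (-0.49 ± 0.391 relative to all genes, limma adjusted p = 0.428). SIR4, which holds that complex together, had 57.9, 59.5, 45.2 and 48.95 TPM (-0.17 ± 0.128 relative to all genes, limma adjusted p = 0.313), with both ndt80pch2 libraries lower.

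Among genes for maltose and related sugars, 11 of the 15 listed were members, 2 of them without reads, and 8 were tested. Of these, 0 passed by either test and 7 lay above the median of all genes, with a list median of 0.374. An unadjusted limma-trend p under 0.05 was found for 1, on the higher side, beside 2.7% of all tested genes on that side. MAL12, MAL32, IMA3, IMA4 and MPH3 have near-identical copies in the list, so their single values are uncertain. Summed, MAL12 with MAL32 stood at 0.42, IMA2 with IMA3 and IMA4 at 0.46, and MPH2 with MPH3 at 0.11. The 3 genes at the right end of chromosome II carried most of the reads. MAL33, the activator of the maltose genes, had 40.1, 60.1, 67.5 and 73.8 TPM in A to D, with no overlap (0.66 ± 0.203 relative to all genes, limma adjusted p = 0.307). MAL31, the maltose permease, had 55.2, 52.1, 65.8 and 47.9 TPM, and MAL32, the maltase, had 17.2, 15.5, 17.5 and 20.8 TPM. For MAL31, library D was the lowest, so the 3 neighbours did not follow 1 order. YPR196W, which resembles maltose activators, had 10.9 to 14.0 TPM (-0.085). MAL11 and MPH2, both maltose transporters, had 0 reads, although MPH3, nearly identical to MPH2, had 12.9 to 17.4 TPM.

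All 6 tested members of the iron list lay above the median of all genes, with a median of 0.176, and 0 had an unadjusted p under 0.05. FET4, a low-affinity transporter of iron and other metals, was the most abundant, with 150, 119.5, 190 and 121 TPM, and the strains overlapped. ARN2, a transporter of iron-binding siderophores, had 11.9, 12.0, 14.2 and 18.8 TPM (0.57 ± 0.255, limma adjusted p = 0.419), with both ndt80pch2 libraries higher. Its relatives ARN1 and ENB1 had 16.3 to 25.4 and 14.4 to 16.4 TPM, and FRE2, a ferric reductase, 4.34 to 6.85 TPM, all overlapping. GEX1 and GEX2, near-identical exchangers of glutathione, had 9 reads or fewer in each library.

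The vitamin list had a median of -0.306 over 8 tested members, 2 of 8 above the median of all genes and 0 passing by either test. All 8 are near-identical copies of one another in 3 groups, and of the summed groups the thiamine genes alone stood below the median of all genes. THI5, THI11, THI12 and THI13 encode near-identical enzymes that make the pyrimidine part of thiamine. Summed over the 4 genes, the level was 93.2 and 103.4 TPM in ndt80 and 64.9 and 76.5 TPM in ndt80pch2, from 93 to 199 reads. Both ndt80pch2 sums were lower, at -0.32 relative to all genes (adjusted p = 0.28 by limma-trend and 0.197 by limma-voom). THI13 alone had 34.1, 33.2, 20.9 and 25.7 TPM (-0.37, and -0.22 without library C; limma adjusted p = 0.29).

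SNO2 and SNO3, which take part in vitamin B6 synthesis, differed in opposite directions. SNO3 had 3.48, 5.56, 10.7 and 10.9 TPM, higher in both ndt80pch2 libraries (limma adjusted p = 0.287), and SNO2 had 11.3, 15.1, 9.60 and 7.65 TPM, lower in both. The genes are identical at 667 of 669 bases. Their sum was 14.8, 20.7, 20.3 and 18.6 TPM in A to D, and the strains overlapped (0.29 relative to all genes, limma adjusted p = 0.768). SNZ2 and SNZ3, which act in the same synthesis, summed to 18.2, 17.2, 23.9 and 13.9 TPM and also overlapped (0.19, limma adjusted p = 0.946). No source used here says how reads matching several genes were assigned, so single values of such genes are uncertain.

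**Figure D5:**
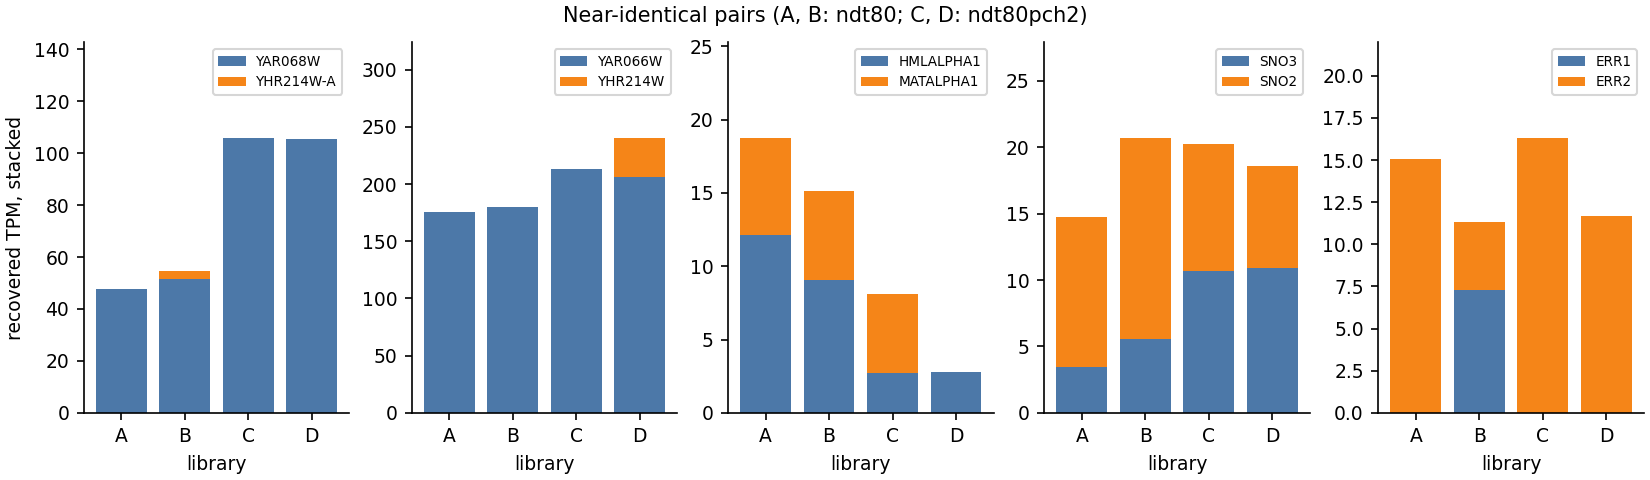
Stacked TPM per library for 5 pairs of near-identical genes, with A and B from ndt80 and C and D from ndt80pch2 and the axis of each panel starting at 0. The sums for YAR068W and its copy are 47.9 and 54.7 TPM in ndt80 and 105.7 and 105.3 TPM in ndt80pch2, whereas those for SNO3 and SNO2 overlap between strains.

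Reads were also divided unevenly within other copy groups. ERR1 and ERR2, enolase-related genes identical at all 1314 bases, had 0, 18, 0 and 0 reads and 34, 10, 30 and 21 reads in A to D. With ERR3 added, which is identical to ERR2 at 1302 bases, the sums were 45.1, 39.2, 35.9 and 39.5 TPM and overlapped. VTH2, a relative of the sorting receptor Vps10, had 39.9 and 41.3 TPM in ndt80 and 27.2 and 29.4 TPM in ndt80pch2, while its copy VTH1, identical at 4649 of 4650 bases, had 0 reads in all libraries. The ndt80pch2 libraries of VTH2 were both lower, from 177 to 361 reads (-0.36 ± 0.153 relative to all genes, adjusted p = 0.287 by limma-trend and 0.083 by limma-voom). SOR1, a sorbitol dehydrogenase, had 44.9, 50.5, 63.8 and 55.8 TPM, higher in both ndt80pch2 libraries (0.47 ± 0.141, limma adjusted p = 0.327), and its copy SOR2 had 0 reads. The cyanamide hydratases DDI2 and DDI3 together had 11, 10, 4 and 5 reads.

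The silent mating cassette HML stores a copy of the alpha mating-type genes and is normally kept off by Sir proteins. HMLALPHA1 (chromosome III, 13282 to 13809) had 11 and 9 reads in ndt80 and 2 in each ndt80pch2 library, or 12.1, 9.06, 2.70 and 2.77 TPM. Both ndt80pch2 libraries were lower (adjusted p = 0.255 by limma-trend and 0.274 by limma-voom), with too few reads for a fold change. It is identical over all 528 bases to MATALPHA1, the active copy, and their sums were 18.7, 15.1, 8.11 and 2.77 TPM. HMLALPHA2, identical to MATALPHA2 over all 633 bases, had 44.1, 46.2, 45.1 and 42.7 TPM, with the strains overlapping. Since the copies are identical, the reads give no separate level for HML.

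The Y' elements formed the copy group with the most members, 32 linked genes of which 12 had 0 reads. Their sum was 358.3 and 410.2 TPM in ndt80 and 372.7 and 400.6 TPM in ndt80pch2, so the strains overlapped (limma adjusted p = 0.959). YJL225C, at the left end of chromosome X (466 to 6130), held 151 to 158 TPM of this sum in every library, whereas YIL177C, at the left end of chromosome IX (483 to 6147), had 0 reads. Among the 8 helicase genes named YRF1, 3 had 0 reads and YRF1-4 had the highest level, with 15.6, 15.8, 16.3 and 15.9 TPM. The median of the 5 tested was 0.039 relative to all genes.

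The remaining lists were small. FLO10, a flocculin of the cell surface and the 1 member among 7 genes of that list, had 13.4, 10.3, 13.2 and 13.5 TPM, overlapping between strains. FDH1, a formate dehydrogenase, had 3.23 to 5.66 TPM, and DSF1 and MAN2, near-identical mannitol dehydrogenases, summed to 13.1, 14.4, 16.6 and 14.1 TPM. IMD2, the IMP dehydrogenase of guanine nucleotide synthesis, had 27.7, 22.7, 29.1 and 23.7 TPM, with overlap. RDS1, a zinc-cluster regulator of drug sensitivity, had 24.9 to 31.1 TPM and was the 1 member of the arsenic and drug list above 10 TPM.

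Of 7 members that transport amino acids or sort vacuolar proteins, or stand beside them in that list, 6 were tested and 0 passed by either test. An unadjusted p under 0.05 was found for CHA1 and IRC7 on the higher side and VTH2 on the lower side, beside 2.7% and 13.1% of all tested genes. IRC7, a beta-lyase that cleaves cysteine conjugates, had 88.7, 86.3, 135.3 and 101.5 TPM (0.57 ± 0.153 relative to all genes, limma adjusted p = 0.297). Both ndt80pch2 libraries were higher, and C stood apart from D. The permease genes SEO1 and AGP3 had 10.4 to 15.2 and 6.34 to 9.36 TPM and overlapped. MMP1, which imports S-methylmethionine, had 7.30, 9.10, 4.48 and 5.01 TPM, lower in both ndt80pch2 libraries (-0.53 ± 0.357, limma adjusted p = 0.371).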

How the data were processed

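The members and gene lists were chosen with earlier results of these data known. The R64 (sacCer3) build and the tools DESeq2 2.11.40.6, HTSeq 0.9.1, HISAT2 2.1.0 and FastQC are listed, per the submitters' processing notes, without their roles. The authors deposited 1 TPM-like value per gene and strain in a column without a name, so its unit was inferred from the values.

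Each deposited value times coding length was solved as the mean of whole reads from 2 libraries, which succeeded for 99.98% of 5983 ndt80pch2 values above 0 within 0.55 of the last digit. From row 94 the ndt80 column averages genes of different rows; taking the second gene from a list without the 18 mitochondrial rows solved 99.94% of 6268 values, against 9.16% with the row's own gene as the second one. A coding length other than that listed was used for 12 genes. Of 6664 nuclear genes, 6645 had values in all 4 libraries. The solving was tested on simulated columns. Which library is replicate 1 or 2 is not known.

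Genes with a mean of at least 1 TPM (5783) were tested on log2(TPM + 1), a scale that understates changes of low genes, with limma 3.58.1 (limma-trend, genotype as the only term, R 4.3.3) and Benjamini-Hochberg adjustment over all of them; both fits were tested on simulated data. p-values belong to the change before the median of all genes is subtracted. The precision is set by 2 libraries per strain and 1715306 to 2379190 reads each. Alternatives were limma-voom, other filters, pseudocounts and scalings, summed copies, and each library left out. Copies were found with blastn 2.17.0; of the gene IDs, 5989 were in the R64 annotation and 5981 had the same coordinates. Coordinates are 1-based, as deposited. Tables were made with pandas 2.3.3 and numpy 2.4.6 in Python 3.11.15, and figures with matplotlib 3.10.9.

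Members named were the 10 of smallest unadjusted p in each direction, the 10 with the highest level, those called, and members of the role lists; YHR214W-A, YIL177C, YJL225C, YPR197C, BDS1, RPD3 and DMC1 were named after their values were seen.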

Additional observations from a re-analysis of the deposited data

How the results depend on the processing

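Of 378 values of 28 named members under 14 other settings, 367 kept direction and side of the threshold, 6 passed the threshold under another setting and 5 changed sign. MGA2 was at -0.041 without library A, -0.00094 without D and -0.0062 with no filter, and HYR1 at -0.034 without A and -0.053 without D; with 1 library left out they ran up to 0.0916 and 0.175. limma-trend called 1 gene; limma-voom called 26, a mean TPM of at least 5 gave 2 and of at least 10 gave 4, median-of-ratios factors with at least 10 TPM gave 10, summed copies with limma-voom 32, no filter 25, and leaving out a library 0 to 1. Members called, 0 by limma-trend, were 1 by limma-voom and 1 with at least 10 TPM (YAR068W in both, adjusted p = 0.0253 and 0.0487), 2 with median-of-ratios factors and at least 10 TPM (YAR068W, 0.0382, and BSC3, 0.0451), 2 with summed copies and limma-voom (YAR068W, 0.0294, and ERG13, 0.0477), and 1 with no filter, YJR157W, which had 0, 0, 1 and 1 reads. Over all settings the adjusted p of YAR068W ran from 0.0253 to 0.763, the highest without library A. The median of the members was 0.0758 to 0.179 with 1 library left out and 0.172 with the end taken as 10000 bases (64 tested genes). With no filter it was 0.116, the value at which the 90 members without reads stand by construction. Their log2 fold change is 0, and the median of all genes is -0.116 there, so this setting gives no separate measure of the offset. The causes of these differences were not tested. With 1 library left out, the lone library is assumed to vary like the other strain. Summed copies, and median-of-ratios factors with at least 10 TPM, were chosen after seeing the data. No paired analysis was possible because the separated libraries carry no replicate numbers, so the replicate block was not run. Of the 280 members, 122 were not tested, and 90 of these had no read in any library.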
